A study of Mus musculus with 4 samples.

Results

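The genes described here are 50 genes of the cell cycle and of DNA replication, chosen by name from the 20971 named genes of the array. They comprise 28 genes of the passage from G1 into S phase and 22 genes of G2 and mitosis, and 66 probes carry them, 12 genes having more than 1 probe. RAW 264.7 cells, a mouse macrophage-like line that the labels give as of BALB/c origin, were left untreated or kept with the bacterium Lactobacillus bulgaricus, at a multiplicity of infection of 10, for 1, 4 or 6 h. RNA from 3 cultures of each group was pooled in equal amounts, labelled with Cy5 and hybridised to 1 array per group. A common reference, labelled with Cy3 and described as pooled RNA of the treated and untreated groups, was hybridised to every array.

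Cells leave G1 when D-type cyclins with CDK4 or CDK6, and then cyclin E with CDK2, inactivate the retinoblastoma protein and release E2F factors, which switch on genes for licensing and copying DNA. Origins are licensed when ORC, CDC6 and CDT1 load the MCM helicase, and the copying fork then draws on PCNA and on enzymes that make deoxynucleotides. Genes of G2 and mitosis follow later under B-MYB and FOXM1, after the DREAM complex, which binds CHR elements, has held them off, and many also use CCAAT boxes. RAW 264.7 cells divide continuously in culture, whereas most tissue macrophages divide rarely. Bacterial products such as lipopolysaccharide are known to slow the division of macrophages.

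With 1 array per group no difference between conditions can be tested, and no p-value or replicate error is given. The only error at hand is that of repeated spots: for probes printed 10 times on each array, the SD of a log2 difference between a treated array and the untreated array was 0.15 at each of the 3 times. This SD leaves out differences between cultures, which the pooling hides, and genes count below as changed where the log2 ratio moved by at least 1.5-fold. The 4 arrays shared 1 slide and their position on it followed the time of treatment, and the effects of position and of time cannot be told apart. All 3 times are also set against the same untreated array.

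The labelled cell type was checked against marker genes. Of 11 macrophage markers with a named probe, 10 were well above background in Cy5 on the untreated, 4 h and 6 h arrays and 9 on the 1 h array. Cd14 did not count as well above background on any array, but it did not have a value on all 4, so low signal on every array is not shown. Tyrobp, an outlier spot to the scanner software on the 1 h array, had no value there. The summed Cy5 signal of 9 of these genes was 33472 on the untreated array and 39162, 35616 and 38146 at 1, 4 and 6 h. Of 16 intestinal epithelium markers, 14 or 15 were above background in Cy5 too, Lgr5 being below it on every array. Their summed Cy5 signal was 5996 on the untreated array and 14630, 8434 and 9121 at 1, 4 and 6 h, and their summed Cy3 signal was 25655, 20003, 20626 and 19840. Of 10 stromal and muscle markers 8 were above background in Cy5, all but Cdh5 and Col1a1, with sums of 1681, 2845, 5174 and 4077. The intestinal and stromal signals in the samples and in the common reference go against the labels. Their part in the values below was not tested. Values of the Cy5 channel alone are given beside the ratios, though they were normalised together with Cy3 and so are not free of the reference. In such pooled samples fewer cycling cells and less RNA per cell cannot be told apart.

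Promoters of 6 genes are printed first, because these genes hold the lowest log2 differences of the ratio at 6 h of their phase: Mcm10, E2f2 and Cdc25a for G1/S, where Ccnd1 belongs with them, and Anapc7, Mki67 and Cenpe for G2/M. In Cy5 alone Anapc7, Cenpe and E2f2 were not low, at 0.77, 0.09 and -0.05. Each runs 5′ to 3′ on the strand of the gene, from 250 bases before to 50 after the RefSeq start site, in GRCm38.p6. Capitals mark 3 elements searched on both strands: TTTGAA (the core of the CHR), CCAAT, and the E2F element, taken as TTCCCGC or as its spellings TTCGCGC and also TTGCCGC and lastly TTGGCGC, which can overlap itself on the opposite strand.
Mcm10 (chr2:5012742-5013041, minus strand): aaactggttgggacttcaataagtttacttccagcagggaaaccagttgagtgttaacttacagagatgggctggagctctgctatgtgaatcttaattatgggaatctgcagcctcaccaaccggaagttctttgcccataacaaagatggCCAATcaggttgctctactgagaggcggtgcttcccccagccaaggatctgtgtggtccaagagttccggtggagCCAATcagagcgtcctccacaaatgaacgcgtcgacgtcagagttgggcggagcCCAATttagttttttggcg
E2f2 (chr4:136172024-136172323, plus strand, the first of 2 windows): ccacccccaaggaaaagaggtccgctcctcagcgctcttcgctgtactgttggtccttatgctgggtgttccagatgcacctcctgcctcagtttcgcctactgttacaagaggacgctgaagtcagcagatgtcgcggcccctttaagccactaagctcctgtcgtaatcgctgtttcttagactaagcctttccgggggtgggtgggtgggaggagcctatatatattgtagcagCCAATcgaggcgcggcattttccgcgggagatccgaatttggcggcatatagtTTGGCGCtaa
Cdc25a (chr9:109875329-109875628, plus strand): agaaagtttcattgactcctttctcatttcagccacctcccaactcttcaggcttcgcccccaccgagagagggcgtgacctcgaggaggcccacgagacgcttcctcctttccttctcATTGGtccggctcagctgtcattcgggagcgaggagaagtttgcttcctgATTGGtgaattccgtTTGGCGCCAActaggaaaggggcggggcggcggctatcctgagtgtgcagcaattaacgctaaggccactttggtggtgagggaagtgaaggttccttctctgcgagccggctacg
Anapc7 (chr5:122422194-122422493, plus strand): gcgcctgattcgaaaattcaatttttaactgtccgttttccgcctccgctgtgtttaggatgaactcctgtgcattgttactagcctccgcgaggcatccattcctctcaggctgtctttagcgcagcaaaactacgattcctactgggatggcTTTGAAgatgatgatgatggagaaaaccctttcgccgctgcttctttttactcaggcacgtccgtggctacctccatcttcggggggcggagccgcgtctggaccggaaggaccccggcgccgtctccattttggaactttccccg
Mki67 (chr7:135716330-135716629, minus strand): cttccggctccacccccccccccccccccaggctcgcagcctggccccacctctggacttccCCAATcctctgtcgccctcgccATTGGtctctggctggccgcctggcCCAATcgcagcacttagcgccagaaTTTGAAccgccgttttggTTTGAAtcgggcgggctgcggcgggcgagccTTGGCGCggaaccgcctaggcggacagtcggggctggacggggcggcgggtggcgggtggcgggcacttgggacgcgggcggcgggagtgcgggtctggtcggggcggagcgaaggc
Cenpe (chr3:135212313-135212612, plus strand): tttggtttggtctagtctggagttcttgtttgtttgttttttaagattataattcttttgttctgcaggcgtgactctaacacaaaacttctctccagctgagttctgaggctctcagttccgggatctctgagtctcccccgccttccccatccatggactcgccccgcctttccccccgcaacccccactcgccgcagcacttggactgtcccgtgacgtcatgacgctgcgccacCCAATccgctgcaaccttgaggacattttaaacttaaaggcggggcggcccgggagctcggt

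In Mki67, which encodes the proliferation antigen Ki-67, TTTGAA stood at -116 and -98 CCAAT at -188, -166 and -141 and an E2F match at -67, counted from the start site to the first base of each. Anapc7, a subunit of the anaphase-promoting complex, had TTTGAA at -96 and none of the other elements. Cenpe, the kinetochore motor CENP-E, had CCAAT at -12 alone. In Cdc25a, the phosphatase that activates CDK2, E2F matches on opposite strands overlapped at -66 and -63, and in E2f2 the match lay after the start site, at 41. The window of Mcm10 held CCAAT at -98, -23 and 32 and no other element. A match is a description of letters and no proof of a site.

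Across the promoters the G2/M and G1/S genes differed in which elements they held. The RefSeq table had a window for 40 of the 50 genes, 17 of G2/M and 23 of G1/S, and the first window listed was used for each. TTTGAA was found in 12 of the 17 G2/M windows (70.6%), in 1 of the 23 G1/S windows (4.35%, that of Mcm2), and in 18.1% of the windows of all 27025 genes. E2F elements ran the other way, with 3 of 17 (17.6%), 13 of 23 (56.5%) and 9.69% of all genes. CCAAT was found in 15 (88.2%) and 14 (60.9%) of the G2/M and G1/S windows and in 37.9% of all. At 6 h the ratios of both kinds of gene lay below untreated: the median log2 difference was -0.19 over 12 genes with TTTGAA and -0.31 over 25 without it, and -0.32 over 14 genes with an E2F element and -0.20 over 23 without.

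**Figure D1:**
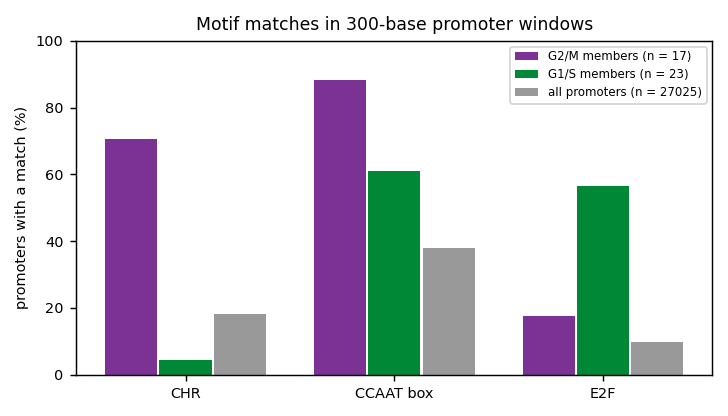
Share of promoter windows (percent, from 0) that hold each of the 3 sequence elements, for G2/M genes, G1/S genes and all genes of the RefSeq table. TTTGAA was found in 70.6% of the G2/M windows and 4.35% of the G1/S windows, and the E2F element in 17.6% and 56.5%.

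Of the 50 genes, 44 were measured at all 3 times, meaning that Cy5 and Cy3 were each well above background on the treated and on the untreated array. Cdk6 was measured at 1 and 4 h only and Ttk at 6 h only, so 45 genes have a ratio at each time. Cdk1, Cdc6, Ccne2 and Aurkb have none. Cdk1, the mitotic kinase, gave Cy5 signals of 40.0 on the untreated array and 26.3, 32.5 and 12.0 at 1, 4 and 6 h with its brightest probe. By that probe it was at least 1.32-fold lower in Cy5 at 6 h than in untreated cells. The Cy3 signal of the probe was lower too, at 39.5 untreated and 25.7, 21.1 and 22.2 at 1, 4 and 6 h. Its other probes, not well above background on any array, differed in Cy5 by 0.11 and 0.02 at 6 h. Cdc6, which loads the MCM helicase, gave 71.7 on the untreated array and 8.0, 5.8 and 6.0 after treatment with 1 of its 2 probes. The treated signals were not well above background. By this probe the Cdc6 level in Cy5 was at least 1.44-, 1.45- and 1.47-fold lower at 1, 4 and 6 h than in untreated cells. Its Cy3 reference signal moved likewise: it was 57.2 beside the untreated sample and 12.1, 13.3 and 27.7 beside the treated ones. Such a bound sets the untreated normalised level against the higher of the lowest level well above background on the treated array and the probe's own level there, which was the higher in these cases. The other Cdc6 probe, not well above background on any array, differed in Cy5 by -0.05, -0.06 and -0.19 at 1, 4 and 6 h.

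The ratios of these genes lay a little lower at 4 and 6 h of treatment than in untreated cells, and few differences were large. The median log2 difference over the 45 measured genes was -0.01 at 1 h, -0.15 at 4 h and -0.23 at 6 h, while that over all measured genes (10369, 10339 and 10311 at the 3 times) was 0.06, 0.00 and -0.01. Below 0 were 23, 39 and 42 of the 45 genes, against 29.4%, 49.1% and 52.1% of all genes. At 6 h 16 of the 45 lay below 0 by more than the spot SD taken 2 times, 6 of G2/M and 10 of G1/S, and none lay above by as much. Of all genes 13.6% lay below and 9.51% above by that measure. At 1 h and at 4 h 2 of the 45 lay below by as much, against 2.21% and 7.04% of all genes.

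Only 1 gene, Anapc7, was at least 1.5-fold lower at 1 h and at 4 h, and 4 genes were at 6 h: Anapc7, Mki67, Mcm10 and E2f2. In Cy5 alone Anapc7 was instead higher than untreated at each time, by 0.48, 0.63 and 0.77 on the log2 scale. None was 1.5-fold higher on the ratio at any time. Among all measured genes 0.463% were at least 1.5-fold lower at 1 h, 1.4% at 4 h and 3.38% at 6 h, and 1.3%, 1.34% and 2.03% were at least 1.5-fold higher. At 6 h 4 of 45 genes is a small number to set against 3.38%. On the ratio, though not in Cy5 alone, Anapc7 was also 2-fold lower at 1 and 4 h, as 0.0482% and 0.213% of all genes were, and at 6 h, when 0.466% were, none of the 50 was.

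**Figure D2:**
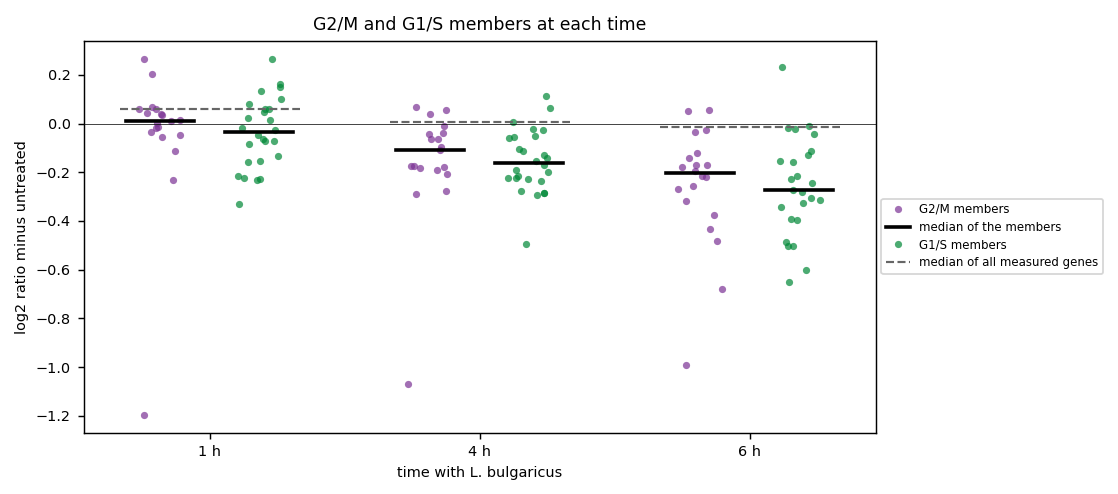
Log2 difference of each measured gene on the ratio (treated minus untreated, vertical axis) at 1, 4 and 6 h, with G2/M genes left of G1/S genes. Bars are the medians of these genes and dashed lines the median of all measured genes. The medians move from near 0 at 1 h to -0.20 for G2/M and -0.27 for G1/S at 6 h. Anapc7, which in Cy5 alone was higher than untreated by 0.48, 0.63 and 0.77, has the lowest difference on the ratio at each time.

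On the ratio the G2/M and G1/S medians were close at each time. The median log2 difference was 0.01 for G2/M and -0.04 for G1/S at 1 h, -0.11 and -0.16 at 4 h, and -0.20 and -0.27 at 6 h. The G2/M median thus stood above the G1/S median by 0.05, 0.05 and 0.07, a difference with no error of its own here. At 4 h it turned to -0.03 with the brightest probe of each gene and to -0.03 with ratios scaled between arrays. At 6 h it was 0.15 in Cy5 alone and 0.03 with the processed signals. Without members whose reference moved by at least 0.5, the 6 h medians were -0.17 for G2/M and -0.31 for G1/S. Below 0 on the ratio at 6 h, under the main settings, were 18 of 20 G2/M genes and 24 of 25 G1/S genes. With median centring in place of loess the 1 h medians were 1.01 for G2/M and 0.90 for G1/S, where the median of all genes was 0.86, so that the G1/S median turned positive.

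Among the treated arrays most of these genes had their lowest ratio at 6 h. Of the 44 genes measured at all times, 33 (75.0%) had a lower ratio at 6 h than at 4 h, a comparison that does not involve the untreated array, against 54.0% of all genes. In 23 genes (52.3%) each time stood below the one before, from 1 h over 4 h to 6 h, against 31.2% of all 10115 genes measured at every time. The 33 genes held 14 of the 19 G2/M genes and 19 of the 25 G1/S genes. The cause of this order was not tested.

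**Figure D3:**
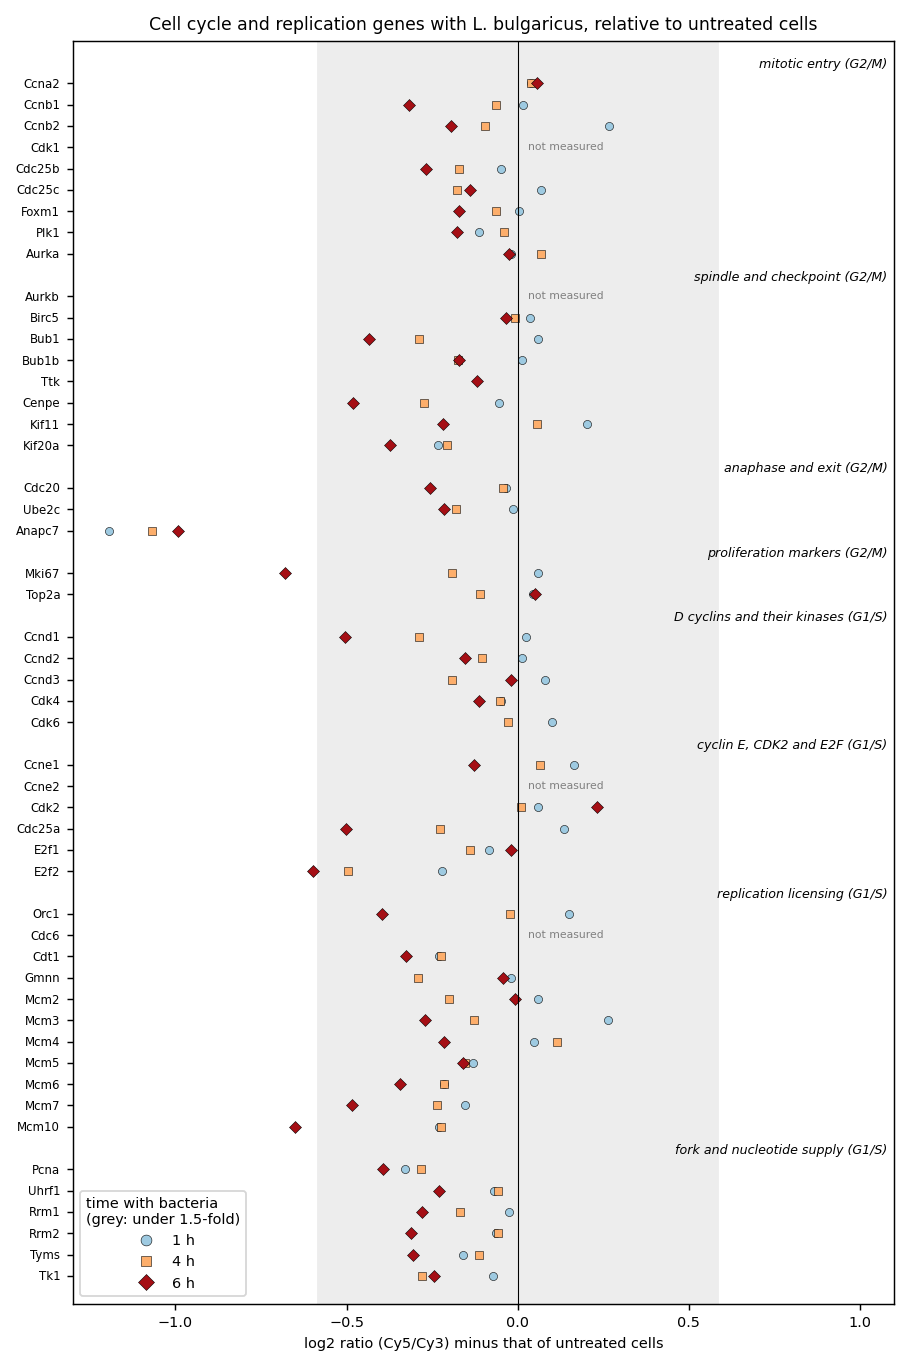
Log2 difference on the ratio (horizontal axis, treated minus untreated) of each gene, grouped by role, with the time (1, 4 or 6 h) shown by colour. The 6 h points are the lowest in most genes, and all 10 measured licensing genes are below 0 at 6 h. Anapc7 has the lowest difference on the ratio at all 3 times, but not in Cy5 alone (0.48, 0.63 and 0.77).

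Among the D cyclins and their kinases, which start the passage through G1, the median log2 difference was 0.02, -0.10 and -0.13 at 1, 4 and 6 h. Cyclin D1 (Ccnd1), the member most tied to growth signals, had Cy5 signals of 19465, 23849, 19161 and 18002 on the untreated, 1, 4 and 6 h arrays and Cy3 signals of 15223, 17427, 18739 and 20023. Its ratio was 0.02 above untreated at 1 h and 0.29 and 0.50 below it at 4 and 6 h. The reference was higher on each later array. Cyclin D3 (Ccnd3) has 2 probes whose ratios lay close to untreated at 6 h, at -0.04 and 0.01. Their single channels parted: 1 probe had Cy5 signals of 4097, 4273, 2865 and 3283, and the other 3974, 3842, 4416 and 6790. Cdk4 has 3 probes, which ranged from -0.26 to 0.05 at 6 h, and Ccnd2 stood at -0.15.

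Genes of cyclin E, CDK2 and E2F, which commit the cell to S phase, had medians of 0.06, -0.14 and -0.13 at the 3 times. E2f2, an activating E2F factor, fell by 0.60 on the log2 ratio at 6 h, after -0.22 and -0.50 at 1 and 4 h. Its Cy5 signal was 2698 on the untreated array and 3204, 2555 and 2543 after treatment, and its Cy3 signal was 1992, 2951, 2781 and 2981. The sample's own channel was therefore close to its untreated value, and the reference was higher on the 3 treated arrays. In Cy5 alone E2f2 was at -0.05 at 6 h.

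Cdc25a had Cy5 signals of 1467, 2159, 1340 and 1207 on the untreated, 1, 4 and 6 h arrays, with Cy3 signals of 1449, 2078, 1522 and 1680. Its log2 differences of 0.13, -0.23 and -0.50 stayed within 1.5-fold. Cyclin E1 (Ccne1), the partner of CDK2 at the start of S phase, stood at 0.16, 0.06 and -0.13, and its brighter probe had Cy5 signals of 8524, 8533, 8432 and 7866. Cdk2 was the only G1/S gene above 0 at 6 h, at 0.23, and both of its channels were higher on the treated arrays: Cy5 484, 815, 838 and 1143 and Cy3 496, 866, 864 and 956. E2f1 stood at -0.02 at 6 h.

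Replication licensing genes had the lowest median at 6 h of the groups with more than 2 measured genes, at -0.30, after -0.08 and -0.21. The group of the fork and of nucleotide supply was close to it, at -0.29. All 10 measured licensing genes were below 0 at 6 h. Mcm10, needed to activate the helicase at origins, fell by 0.65 on the log2 ratio at 6 h, after -0.23 and -0.22. Its Cy5 signal was 2229 on the untreated array and 2442, 2218 and 1694 at 1, 4 and 6 h, and its Cy3 signal was 1898, 2561, 2233 and 2372. The 6 h array was the lowest in Cy5, and Cy5 alone gave -0.49.

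Of the helicase subunits, Mcm7 stood at -0.48 at 6 h, with Cy5 signals of 16430, 17024, 16998 and 8761 and Cy3 signals of 14314, 16073, 17392 and 10675 on the untreated, 1, 4 and 6 h arrays. Both channels were lowest at 6 h. In Mcm2 both channels were low at 4 and 6 h: Cy5 was 1726, 1642, 694 and 763 and Cy3 1804, 1785, 869 and 789, so the ratio stood at -0.01 at 6 h while Cy5 alone was at -1.16. Among the rest, Mcm3, Mcm4, Mcm5 and Mcm6 ranged from -0.34 to -0.16 at 6 h. Orc1 of the origin recognition complex stood at -0.40 and the loader Cdt1 at -0.33. Gmnn, the inhibitor of CDT1, stood at -0.04, with Cy5 at 426, 272, 189 and 127 and Cy3 at 375, 234, 184 and 108 on the 4 arrays.

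The 6 genes of the fork and of nucleotide supply were all below 0 at each time, with medians of -0.07, -0.14 and -0.29. Pcna, the sliding clamp of the DNA polymerases, had Cy5 signals of 8464, 6018, 6648 and 5821 and Cy3 signals of 8270, 7503, 7110 and 7132. Its log2 differences were -0.33, -0.28 and -0.39, the lowest of the 45 genes after Anapc7 at 1 h. Rrm2, the regulated subunit of ribonucleotide reductase, stood at -0.31 at 6 h, with Cy5 at 20964, 23218, 20636 and 20034 and Cy3 at 21086, 23900, 20655 and 24691. Tk1, the salvage kinase for thymidine, had the lowest Cy5 difference of all 45 genes at 6 h, at -1.22, but stood at -0.24 on the ratio because Cy3 was lower too: Cy5 was 5707, 3528, 3045 and 2370 and Cy3 5136, 3332, 3453 and 2470.

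**Figure D4:**
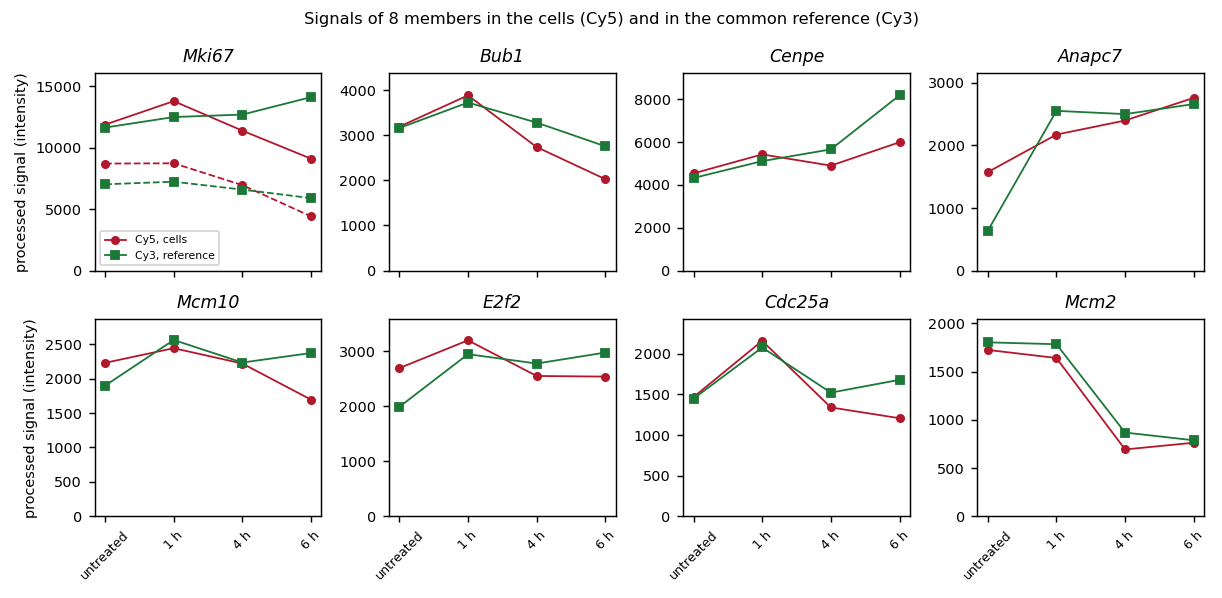
Processed signal (linear axis from 0) of Cy5 (sample) and Cy3 (reference) on the untreated, 1, 4 and 6 h arrays for 8 genes, with the 2 probes of Mki67 as solid and dashed lines. In Mki67, Bub1 and Mcm10 the Cy5 signal was lowest at 6 h, in Mcm2 both channels were lower at 4 and 6 h, and in Anapc7 Cy3 was 635 on the untreated array and 2502 or more on the others.

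Genes of mitotic entry had medians of 0.01, -0.06 and -0.17 at 1, 4 and 6 h. Cyclin B1 (Ccnb1), the partner of CDK1, has 3 probes that lay together at 6 h, from -0.35 to -0.27. The brightest had Cy5 signals of 4754, 5245, 4382 and 4107 and Cy3 signals of 3371, 3634, 3269 and 3859 on the untreated, 1, 4 and 6 h arrays. Ccnb2 stood at 0.27, -0.10 and -0.20. Cdc25b, a phosphatase that activates CDK1, stood at -0.27 at 6 h although its Cy5 signal was higher after treatment, at 5070 untreated and 6722, 6078 and 5919 after treatment. Its Cy3 signal was 4081, 5506, 5545 and 5524. Cyclin A2 (Ccna2), active in S phase and G2, was above 0 at each time, from 0.04 to 0.05, and Plk1, Aurka and Foxm1 ranged from -0.18 to -0.03 at 6 h.

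Genes of the spindle and its checkpoint had medians of 0.02, -0.19 and -0.22. Cenpe stood at -0.06, -0.28 and -0.48, with Cy5 signals of 4542, 5431, 4905 and 6000 and Cy3 signals of 4327, 5116, 5665 and 8194. Both channels were highest on the 6 h array, and Cy5 alone gave 0.09. Bub1, a checkpoint kinase, stood at 0.06, -0.29 and -0.43 with Cy5 at 3189, 3884, 2738 and 2026 and Cy3 at 3159, 3724, 3280 and 2755. Here Cy5 alone was lower as well, at -0.69. Kif20a and Kif11, motors of cytokinesis and of the bipolar spindle, stood at -0.37 and -0.22 at 6 h. The 2 measured probes of Birc5, which encodes survivin, differed in sign, at -0.21 and 0.14.

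In the group of anaphase and mitotic exit, Anapc7 was 1.20, 1.07 and 0.99 below untreated on the log2 ratio at 1, 4 and 6 h. Its measured probe had Cy5 signals of 1574, 2174, 2400 and 2763 and Cy3 signals of 635, 2554, 2502 and 2663. The sample's signal was higher on every treated array and the reference on the untreated array was far below the other 3, so that Cy5 alone gave 0.48, 0.63 and 0.77, the opposite direction. The reference is labelled as the same pool on all arrays. Its other probe was not well above background. Cdc20, which activates the anaphase-promoting complex, stood at -0.26 at 6 h, with Cy5 at 14861, 19257, 18403 and 18267 and Cy3 at 14839, 19437, 19224 and 21719. Ube2c, its ubiquitin-conjugating partner, stood at -0.21 at 6 h.

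Mki67 fell by 0.68 on the log2 ratio at 6 h, after 0.06 and -0.19 at 1 and 4 h, and its 2 probes gave -0.66 and -0.70. The probe at -0.66 had Cy5 signals of 11876, 13789, 11384 and 9102 and Cy3 signals of 11638, 12495, 12695 and 14116 on the untreated, 1, 4 and 6 h arrays. The probe at -0.70 had Cy5 signals of 8707, 8729, 6949 and 4406 and Cy3 signals of 7019, 7231, 6586 and 5895. In both probes Cy5 was lowest at 6 h, and Cy5 alone gave -0.83 with a reference shift of -0.15. Top2a, the topoisomerase that untangles chromosomes and like Mki67 a usual marker of cycling cells, stood at 0.04, -0.11 and 0.05. Its Cy5 signal was 2809, 2876, 2364 and 2332 and its Cy3 signal 2780, 2843, 2442 and 2066.

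The common reference was not constant for these genes. At 6 h its log2 level differed from the untreated array by at least 0.5 in 12 of 45 genes (26.7%) and in 12.9% of all genes. In Cy5 alone the median difference of the 45 genes at 6 h was -0.20, against 0.04 for all genes. In that channel 33 of the 45 genes were below 0, and 4695 of all 10311 genes. The Cy5 median was -0.07 for G2/M and -0.22 for G1/S.

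Cy5 alone placed other genes past 1.5-fold than the ratio did. At 1 h Mcm3, Tk1 and Pcna were lower and Cdk2 and Cdc25a higher, where 2.2% of all genes were lower and 2.39% higher. At 4 h Mcm2, Tk1, Gmnn and Mcm3 were lower and Cdk2 and Anapc7 higher, with 4.28% and 4.25% of all genes. At 6 h 9 genes were lower, Bub1 and Mki67 of G2/M and Tk1, Mcm2, Mcm7, Gmnn, Rrm1, Mcm3 and Pcna of G1/S, and Cdk2 and Anapc7 were higher, with 7.62% and 7.02% of all genes. In 6 of those 9 the reference had moved by at least 0.5 as well. Of the 4 genes called on the ratio at 6 h, Mki67 alone was called lower in Cy5 too.

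**Figure D5:**
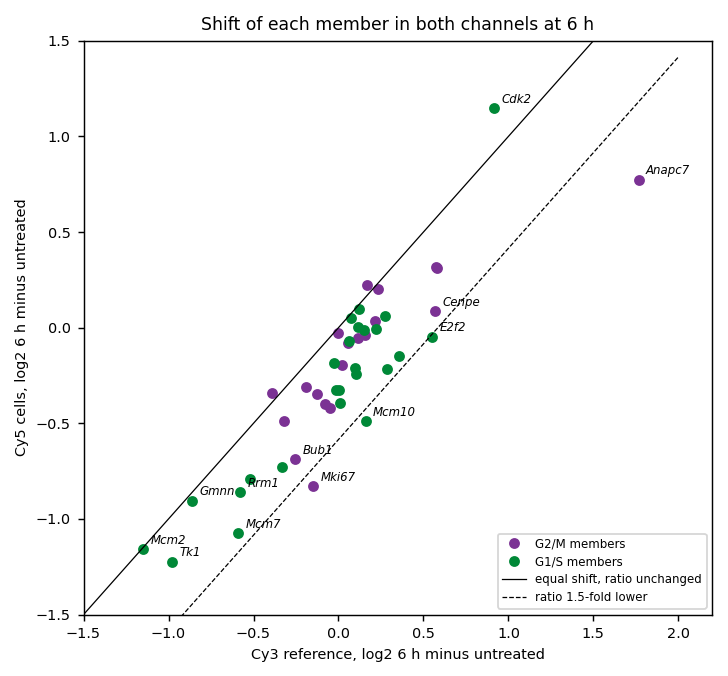
Log2 difference at 6 h (6 h minus untreated) of the Cy3 reference (horizontal axis) and of Cy5 (vertical axis) for the 45 measured genes, G2/M and G1/S in separate colours. Points on the diagonal have no difference in ratio: Mcm2 lies there at -1.15 in Cy3 and -1.16 in Cy5, and Anapc7 lies far to the right of it at 1.77 in Cy3 and 0.77 in Cy5.

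Further genes of the pathway, listed by role, were read on the same ratio. Of 48 measured other S phase genes 40 were below 0 at 6 h, with a median of -0.14, and 2 were at least 1.5-fold lower. Of all genes 52.1% were below 0 and 3.38% at least 1.5-fold lower, a share near that of the calls. These were Pold1, the catalytic subunit of DNA polymerase delta, at -0.71, and Dtl, which targets CDT1 for destruction, at -0.64. Both were also lower in Cy5 alone, at -0.88 and -0.83. Pole2 and Hells stood at -0.41 each.

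Of 45 measured other G2 and M phase genes 40 were below 0 at 6 h, against 52.1% of all genes, with a median of -0.16. At least 1.5-fold lower were 2, again near the 3.38% of all genes: Hmmr at -0.89 and Tubb4b at -0.80. In Cy5 alone these were at 0.00 and 0.13, and the reference had moved by 0.88 and 0.93. Cdca2 and Gas2l3 stood at -0.56 and -0.53, with Cy5 alone at -0.48 and -0.47.

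At 6 h the other E2F and DREAM genes had a median of -0.04, 8 of 12 being below 0. Beside this and the counts that follow, 52.1% of all genes were below 0 at 6 h and 3.38% at least 1.5-fold lower. E2f8, a repressing E2F that is itself an E2F target, fell by 0.92 on the log2 ratio, and Cy5 alone gave -0.70. E2f3 and E2f7 stood at -0.53 and -0.43 and Lin54, the DREAM subunit that binds the CHR, at 0.28. The CDK inhibitors and pocket proteins, which hold cells in G1, had a median of 0.15, with 3 of 8 below 0 and none past 1.5-fold. Cdkn2d, Cdkn2c and Cdkn1b stood at 0.38, 0.32 and 0.30, and Cdkn2b at -0.22. In Cy5 alone they were at 0.48, 0.22, -0.40 and -0.23 in the same order, so Cdkn1b was below untreated there, with a reference shift of -0.70. Of 14 other subunits and regulators of the anaphase-promoting complex 8 (57.1%) were below 0, near the share of all genes. Only Fbxo5, the inhibitor EMI1, was past 1.5-fold, at -0.79, with Cy5 alone at -0.32. Anapc1, Cdc27 and Anapc11 stood at -0.37, -0.23 and 0.20.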

How the data were processed

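Values were the deposited scanner tables of 2-colour Agilent arrays, for which the submitters' processing notes name Agilent Feature Extraction 10.5.1.1. Each deposited table gives, per the file headers, median and background intensity of Cy5 and Cy3 per spot, processed intensity signals, flags for spots well above background, and a log10 ratio. The deposited log10 ratios of the series table are Cy5 over Cy3. Signals printed in the report are processed intensity, and differences are log2 values computed here from the deposited intensity. Outlier and control spots were left out and no spot was saturated.

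Background was corrected with normexp (offset 50) and each array normalised by loess in limma 3.58.1 under R 4.3.3. Single channels came from Aquantile after the loess, and both steps use Cy5 and Cy3 together. Spots of a probe, then measured probes of a gene, were averaged. Through the background correction, the normalisation and this averaging, a gene's log2 difference can differ from the ratio of the processed signals, also for a gene with 1 probe. Probes were named through their accession in the RefSeq table (27655 of 39429). A probe counted as measured where both channels were well above background on both arrays. Tables were handled in Python 3.11.15 with pandas 2.3.3. The procedure was tested on simulated data with known changes: they were understated, and most true changes of 1.5-fold were not called, so the counts at that rule miss small changes.

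The members and lists were chosen with earlier results of these data known. Per-array values are given for members past 1.5-fold, for the 2 measured members of each role with the largest difference at any time, and for Mki67, Top2a, Pcna, Ccnb1, Ccne1, Ccnd1, Cdk1 and Mcm2. Gmnn, Tk1 and Cdk2 were added after their values were seen, for their single-channel shifts. From each further list the up to 4 genes with the largest difference at 6 h are named. The number of arrays, 1 per group, limits the precision, and 11 alternatives were tried.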

Additional observations from a re-analysis of the deposited data

How the results depend on the processing

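The medians of both phases, counted from the median of all genes, were below 0 at 4 and 6 h under the main settings and all 11 alternatives. At 1 h they were below it except with median centring in place of loess, which moved the median of all genes to 0.86 at 1 h and -0.15 at 6 h. That setting gave medians of 1.01 for G2/M and 0.90 for G1/S at 1 h (0.15 and 0.04 above all genes) and -0.44 for G1/S at 6 h, with 41 members past 1.5-fold at 1 h, when 7802 of 10369 genes were higher by as much, and 9 at 6 h, when 7.15% of all genes were lower. Cy5 alone gave 5, 6 and 11 members past 1.5-fold at 1, 4 and 6 h, and turned Anapc7 round to 0.48, 0.63 and 0.77. Without the filter on dim probes, which averages a dim probe into Anapc7, 0 members passed at 1 h and 0 at 4 h. Ratios scaled between arrays left 2 members at 6 h. The 4 h difference of G2/M minus G1/S turned to -0.03 with scaled ratios and with the brightest probe. Without the members at a phase boundary (Ccna2, Gmnn, Foxm1, Mki67 and Anapc7) the counts were 0, 0 and 2 of 40. Without members whose reference moved by at least 0.5 they were 0 and 0 of 40 and 2 of 33. Both results follow by construction: of the genes called on the ratio, the first setting takes out Anapc7 and Mki67. The second takes out Anapc7 and, at 6 h, E2f2. Among the alternatives, the processed signals and the deposited log10 ratios gave nearly the same values, with G1/S medians at 6 h of -0.2652 and -0.2651, and are not separate support. Single genes had 9 alternatives, with both of these among them. At 6 h E2f2 passed 1.5-fold in 8 (-0.74 to -0.05), Mki67 in 8 (-0.84 to -0.56) and Mcm10 in 7 (-0.81 to -0.49). Anapc7 passed in 6, 7 and 7 at 1, 4 and 6 h, with Cy5 alone in the opposite direction. Apart from the median centring, the causes of these shifts were not tested beyond what each setting leaves out. No paired analysis was possible because each group has 1 array. Signal over background limits Cdk1, Cdc6, Ccne2 and Aurkb, which have no ratio.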
